A study of Mus musculus with 12 samples.

Results

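Zfp genes carry the mouse symbol for zinc finger protein, and 299 of them were followed here in bone-marrow-derived macrophages exposed to the bacterial sugar ADP-Hep. The genes were chosen by name and by abundance. Of 404 symbols in which Zfp is followed by a digit, without symbols marked -ps and without Zfp36, Zfp36l1 and Zfp36l2, 24 had no count in any library and 81 had at least 1 but fewer than 240 counts over the 12 libraries. The other 299 had at least 240 counts in sum, and all 299 were among the 12261 genes tested. Just outside this limit lay Zfp607b with 238, Zfp239 with 235 and Zfp105 with 234 counts, and just inside it Zfp365 with 241 and Zfp551 and Zfp791 with 247 counts each. A further 2 Zfp symbols were not analysed here, because they lie in rows of the deposited table where the columns of the knockout libraries do not sit beside their gene identifiers.

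A zinc finger of the C2H2 type is a short loop of protein folded around a zinc ion, and a row of such loops reads a stretch of DNA, with each finger contacting a few bases. Many members carry a KRAB domain in front of the fingers. KRAB binds the co-repressor TRIM28, which brings in the histone methyltransferase SETDB1 and other silencing enzymes, and the best known targets of this machinery in mouse are retroviral elements in the genome. Others carry a SCAN domain, through which such proteins pair, or a BTB domain, and some use their fingers on RNA or on other proteins and are no transcription factors. In macrophages the better studied zinc finger regulators bear other names, and many Zfp genes are known mainly from their sequence.

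The RNA came from mouse bone marrow cells grown into macrophages over 7 days in medium conditioned by L929 cells, from animals that were wild-type (WT) or lacked Alpk1 (Alpk1-/-, called KO here). ALPK1 is the cytosolic kinase that binds ADP-heptose, a building block of bacterial lipopolysaccharide, and it signals through TIFA and TRAF6 to NF-kB. The exposure lasted 4 h, to ADP-Hep at 100 µM or to PBS alone, and each of the 4 groups, KO ADP-Hep, KO PBS, WT ADP-Hep and WT PBS, has 3 libraries. The labels give the strain as C57BL/6N. They leave out which part of Alpk1 is deleted, whether KO and WT mice were littermates, and whether replicates are separate mice or cultures, so the p-values speak only of the scatter among these libraries, part or all of which may be technical.

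The libraries held 16110654 to 31333973 counts. Alpk1 itself had 21.6, 19.2 and 22.5 CPM (counts scaled to library size, on TMM-scaled sizes) in KO ADP-Hep, 22.3, 20.3 and 21.3 CPM in KO PBS, 53.8, 55.3 and 52.3 CPM in WT ADP-Hep and 30.1, 32.1 and 25.9 CPM in WT PBS libraries. The KO libraries lay below the WT libraries but still held Alpk1 counts; since the deleted part is not given, these counts cannot show how much intact transcript was left. All 8 macrophage markers had counts in every group, at a summed level of 25750 to 26470 CPM in KO ADP-Hep, 26580 to 27450 CPM in KO PBS, 28730 to 29610 CPM in WT ADP-Hep and 24830 to 26770 CPM in WT PBS libraries. Of these 8, ADP-Hep raised 4 and lowered 2 in WT cells, and raised 1 and lowered 1 in KO cells. In KO against WT cells, 3 were higher and 0 lower with PBS, and 3 were higher and 2 lower with ADP-Hep. The 5 progenitor markers summed to 4.46 to 4.89 CPM in WT ADP-Hep and 22.1 to 23.4 CPM in WT PBS libraries. In KO cells these 5 summed to 14.8 to 16.2 CPM with ADP-Hep and 17.6 to 19.8 CPM with PBS. Of the 3 that were tested, all were called lower with ADP-Hep in WT cells and 2 in KO cells. The part of these markers in the results below was not tested. Summed neutrophil markers ran from 169.4 to 179.1 CPM in KO ADP-Hep, 242.1 to 270.8 CPM in KO PBS, 201.5 to 224 CPM in WT ADP-Hep and 205.8 to 227.2 CPM in WT PBS libraries. Of the 8 neutrophil markers tested, ADP-Hep raised 3 and lowered 1 in WT cells, and raised 0 and lowered 5 in KO cells. In KO against WT cells, 2 were higher and 1 lower with PBS, and 1 was higher and 7 lower with ADP-Hep. B cell markers, of which 3 of 5 had counts, summed to 14.9 to 15.4 CPM in KO ADP-Hep, 13.6 to 17.9 CPM in KO PBS, 7.69 to 10.6 CPM in WT ADP-Hep and 10.9 to 14.03 CPM in WT PBS libraries. T and NK cell markers, of which 2 or 3 of 6 had counts, summed to 2.52 to 3.30 CPM in KO ADP-Hep, 3.48 to 3.63 CPM in KO PBS, 0.815 to 1.11 CPM in WT ADP-Hep and 1.87 to 2.56 CPM in WT PBS cells. In the B cell list and in the T and NK cell list 1 marker each was tested, and it was called lower in WT ADP-Hep than in WT PBS cells. Dendritic cell and stromal markers summed to at most 2.02 and 2.52 CPM in any library. The mean log2 CPM of 7 mitochondrial mRNAs was 9.09 to 9.78 in KO ADP-Hep, 8.47 to 9.65 in KO PBS, 9.803 to 9.85 in WT ADP-Hep and 9.42 to 9.51 in WT PBS cells. The part of these lists in the results was not tested either. In bulk RNA, fewer cells of a type and less RNA per cell cannot be told apart.

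The name was checked against proteins translated from GENCODE release 21 for mouse (mm10). Of the 296 members with an annotated protein, 291 held at least 1 C2H2 finger, and the 5 without a match were Zfp330, Zfp365, Zfp503, Zfp703 and Zfp839. Members had a median of 11 fingers and at most 40. A KRAB domain was found in 181 members, whose proteins had a median of 12 fingers, against a median of 7 fingers in the 115 proteins without KRAB. Without KRAB means here that the search found none, which does not show that the domain is absent. A SCAN domain was found in 13 members, 7 of them with KRAB as well. The other 3 members had no annotated protein: Zfp125 and Zfp939 are annotated as transcribed pseudogenes and Zfp469 as a long noncoding RNA. Zfp genes often lie side by side: chromosome 7 held 74 members, chromosome 17 held 42 and chromosome 13 held 30. Only 91 members had no other member within 1 Mb, and 7 runs of at least 9 members held 96, of which 81 were KRAB genes.

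Neighbouring Zfp genes often arose as copies, which limits how well reads can be placed. In 36 members, 33 of them KRAB genes, more than 20% of the 50-base stretches of the transcripts also occurred in another gene, and their counts are uncertain. Exons of 28 members overlapped another gene on the same strand and exons of 69 overlapped one on the other strand. The libraries were made with a stranded kit, but the strand setting of the counting is not given in the sources used here.

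The promoters of Zfp811, Zfp263, Zfp800 and Zfp131 are shown because these 4 members had the largest rises in WT cells. The sequences are the bases before the annotated start in RefSeq's promoter table for GRCm38.p6, printed 5′ to 3′ on the strand of the gene, with matches to the NF-kB motif in capitals. The windows are chr17:32809932-32810181, chr16:3743849-3744092, chr6:28398006-28398255 and chr13:119790890-119790982, and the last of these is shorter because an annotated exon begins inside the table's window.
Zfp811: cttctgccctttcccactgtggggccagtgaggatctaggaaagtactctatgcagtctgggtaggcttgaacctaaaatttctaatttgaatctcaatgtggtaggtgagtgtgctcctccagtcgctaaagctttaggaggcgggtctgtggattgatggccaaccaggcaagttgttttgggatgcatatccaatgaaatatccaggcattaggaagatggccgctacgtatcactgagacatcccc
Zfp263: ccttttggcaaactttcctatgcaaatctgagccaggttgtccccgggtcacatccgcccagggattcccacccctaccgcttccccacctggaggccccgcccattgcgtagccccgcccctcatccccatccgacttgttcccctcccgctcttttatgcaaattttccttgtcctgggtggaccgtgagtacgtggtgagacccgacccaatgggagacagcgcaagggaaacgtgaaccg
Zfp800: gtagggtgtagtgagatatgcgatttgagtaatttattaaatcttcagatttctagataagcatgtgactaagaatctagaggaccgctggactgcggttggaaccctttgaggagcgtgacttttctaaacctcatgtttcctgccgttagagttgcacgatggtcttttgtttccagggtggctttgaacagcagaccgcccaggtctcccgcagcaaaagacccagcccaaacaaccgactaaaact
Zfp131: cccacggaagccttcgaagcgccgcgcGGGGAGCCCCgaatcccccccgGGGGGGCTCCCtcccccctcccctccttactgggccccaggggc
The window of Zfp131 held 3 matches to the NF-kB motif over both strands, of which 2 overlap, and the windows of the others held none. The motif of AP-1 (TGANTCA) and the core of the interferon-stimulated response element (GAAA, any 2 bases, GAAA) were searched too, on both strands, and neither was found in these 4 windows.

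The same search over the 252 members that matched the table gave few motifs. A match to the NF-kB motif lay in the 250 bases before a start of 19 members (7.54%), against 8.23% of all 27025 genes in the table. A gene with several starts was counted when any of them matched. TGANTCA was found for 3.17% of members against 7.82% of all genes, and the interferon element's core for 1.98% against 3.46%. Among members with a rise in WT cells 4 of 41 held the NF-kB motif (9.76%), among those with a fall 10 of 94 (10.64%), and among the rest 5 of 117 (4.27%). These matches are letters in a window and do not show binding.

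Zfp genes were modestly expressed. The median member had 10.8 CPM over the 12 libraries, against 24.9 CPM for all genes tested, and members ran from 1.15 to 402 CPM. Together they held 0.686, 0.669 and 0.683% of the counts in the rows used in KO ADP-Hep, 0.662, 0.650 and 0.651% in KO PBS, 0.607, 0.580 and 0.555% in WT ADP-Hep and 0.640, 0.637 and 0.653% in WT PBS libraries. The WT ADP-Hep libraries had the lowest shares and did not overlap any other group; no test was made of these shares. KRAB members were lower than the others, with a median of 7.80 CPM against 20.1 CPM for members without KRAB.

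Per kilobase of exon, the highest member in WT PBS cells was Zfp106, an RNA-binding protein studied in motor neurons, with 39.4 CPM per kb. It was followed by Zfp385a with 38.6 and Zfp207 with 31.6 CPM per kb. Zfp385a binds RNA and p53, and Zfp207, also called BuGZ, helps chromosomes attach to the spindle. The next were Zfp710 (23.2), Zfp706 (18.7), Zfp871 (16.8), Zfp217 (15.5) and Zfp703 (15.0 CPM per kb). Of these 8 genes, only Zfp871 had a KRAB domain by the search.

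**Figure D1:**
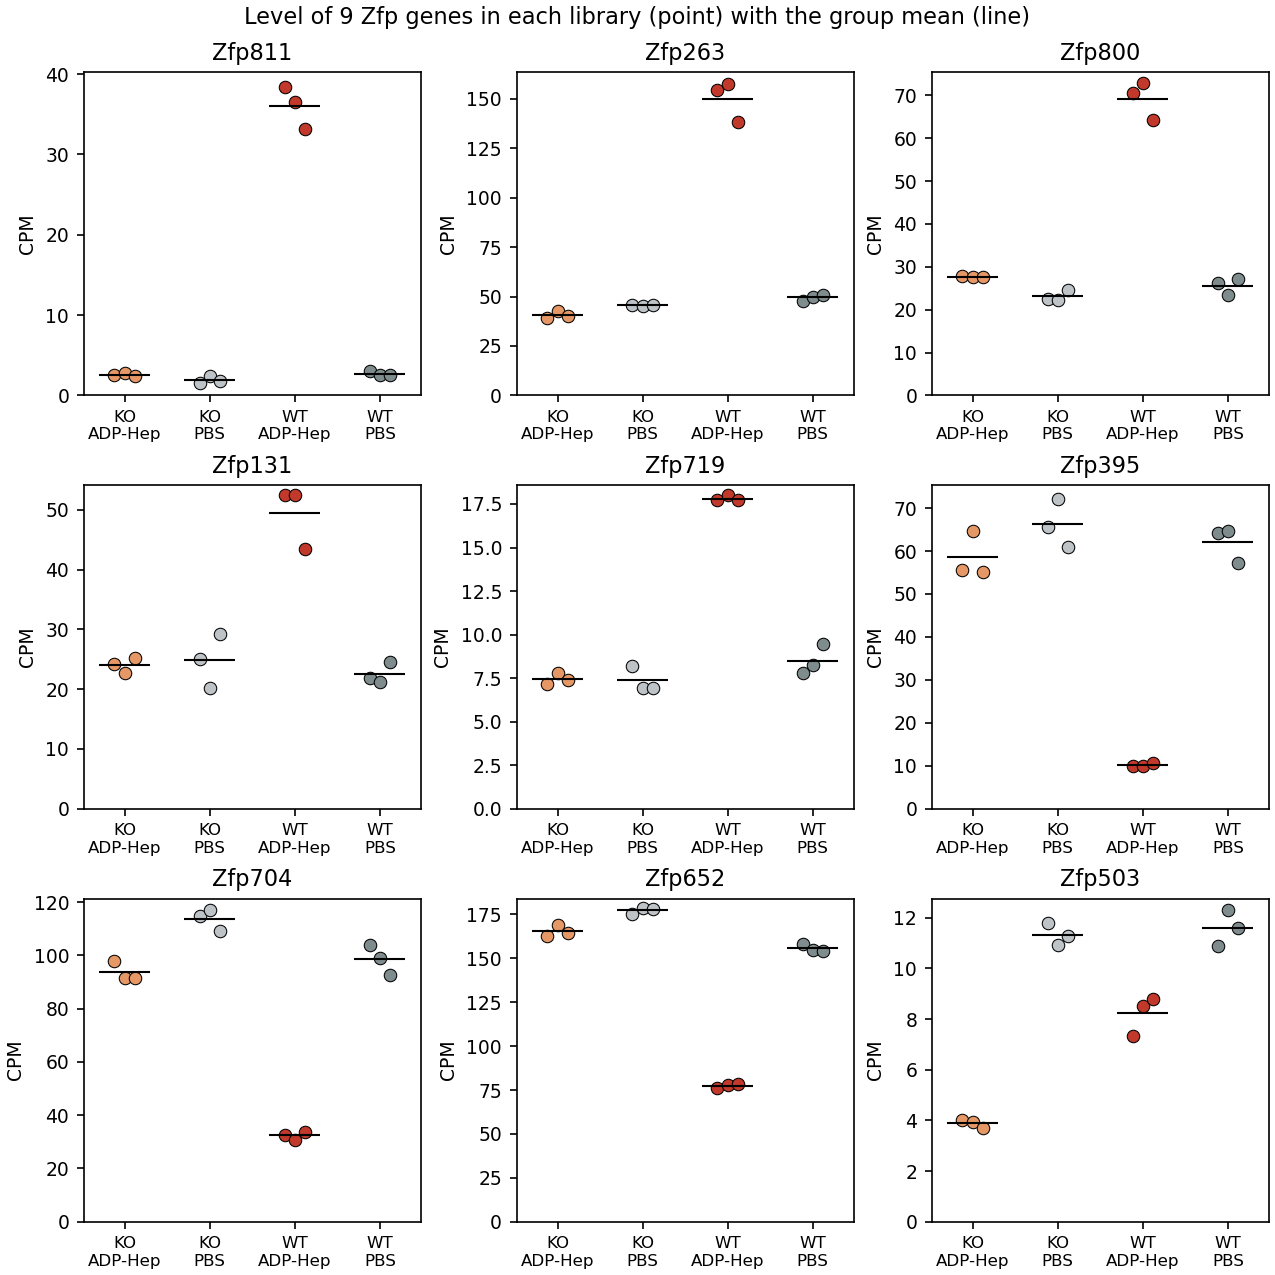
Level (CPM, vertical axes from 0) of Zfp811, Zfp263, Zfp800, Zfp131, Zfp719, Zfp395, Zfp704, Zfp652 and Zfp503 in each library (points) of the KO ADP-Hep, KO PBS, WT ADP-Hep and WT PBS groups, from left to right, with the group mean as a line. Zfp811 stands at 33.2 to 38.4 CPM in WT ADP-Hep libraries, against 2.49 to 3.00 CPM in WT PBS libraries, and Zfp395 at 9.86 to 10.7 CPM against 57.3 to 64.7 CPM.

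In WT cells, ADP-Hep lowered more Zfp genes than it raised. At an edgeR adjusted p under 0.05, 44 of 299 members were higher (14.7%) and 110 lower (36.8%) in WT ADP-Hep than in WT PBS cells, where 31.9% of all tested genes were higher and 31.6% lower; the rise was thus less frequent among members than over all genes and the fall was slightly more frequent. Most changes were small: 31 of the 44 rises and 62 of the 110 falls were under 1.5-fold, with a median fold of 1.28 for rises and 1.45 for falls. At least 2-fold changes were called in 5 members upward and 10 downward, against 6.81% and 6.75% of all genes. The median log2 fold change over all 299 members was -0.15, against -0.01 over all tested genes, and 206 members had a negative value and 93 a positive one.

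The balance depends on the scaling. Under library totals in place of TMM, which estimates a library's size from the bulk of its genes, 29 members were higher and 145 lower in WT ADP-Hep cells, the median log2 fold change of all tested genes was -0.12, against -0.01 under TMM, and that of members was -0.26. The WT ADP-Hep libraries had TMM factors of 0.926 to 0.954 against 0.998 to 1.05 in all others.

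The largest rise was that of Zfp811, a KRAB gene with 13 fingers at chr17:32795676-32809931. It had 38.4, 36.6 and 33.2 CPM in WT ADP-Hep libraries and 2.995, 2.49 and 2.51 CPM in WT PBS libraries. The groups are far apart, with the lowest ADP-Hep library many times the highest PBS library. The log2 fold change was 3.77 ± 0.11 (SE, n = 3 each; edgeR adjusted p = 7.46e-20).

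Zfp263, which has a SCAN domain and 9 fingers and lies at chr16:3744093-3750790, had 154, 157 and 138 CPM in WT ADP-Hep and 47.99, 49.99 and 50.9 CPM in WT PBS libraries. It was the most abundant of the members that rose at least 2-fold, and its log2 fold change was 1.598 ± 0.05 (edgeR adjusted p = 1.29e-18). Zfp800, with 7 fingers at chr6:28239927-28398005, had 70.5, 72.9 and 64.3 CPM with ADP-Hep and 26.2, 23.4 and 27.1 CPM with PBS in WT cells, a log2 fold change of 1.44 ± 0.06 (edgeR adjusted p = 2.81e-16). Both genes were separated between treatments in all libraries. An exon of Zfp800 overlaps 6530409C15Rik on the other strand.

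Zfp131 encodes a BTB zinc finger protein with 6 fingers and lies at chr13:119765187-119790889. It had 52.5, 52.5 and 43.4 CPM in WT ADP-Hep and 21.9, 21.2 and 24.6 CPM in WT PBS libraries, and its log2 fold change was 1.14 ± 0.10 (edgeR adjusted p = 1.36e-08). Zfp719, a KRAB gene with 13 fingers at chr7:43579610-43593235, had 17.7, 18.01 and 17.7 CPM with ADP-Hep and 7.81, 8.26 and 9.43 CPM with PBS, a log2 fold change of 1.05 ± 0.09 (edgeR adjusted p = 2.31e-10). These were the last of the 5 members that rose at least 2-fold, and in both every ADP-Hep library lay above every PBS library.

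Smaller rises included regulators known from other cells. Zfp281, a factor that binds GC-rich elements and is best known from embryonic stem cells, had 87.1, 88.9 and 80.7 CPM in WT ADP-Hep and 53.2, 50.3 and 57.9 CPM in WT PBS libraries (log2 fold change 0.67 ± 0.06, edgeR adjusted p = 1.21e-10). Zfp451, a ligase that attaches SUMO chains to proteins, had 97.2, 97.2 and 92.7 CPM with ADP-Hep and 61.9, 59.9 and 60.02 CPM with PBS (log2 fold change 0.66 ± 0.06, edgeR adjusted p = 3.21e-10). The groups did not overlap for either gene. Log2 fold changes of the others among the 12 largest with at least 2 CPM and no overlap were 0.82 for Zfp119a, 0.74 for Zfp513, 0.69 for Zfp948, 0.65 for Zfp429 and 0.62 for Zfp619, the last a KRAB gene with 33 fingers. Zfp119a and Zfp429 share 16.6% and 26.1% of their 50-base stretches with other genes, mostly Zfp119b and Rsl1, and an exon of Zfp513 overlaps Snx17 on the other strand.

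The largest fall was that of Zfp395, which binds the promoter region of the Huntington disease gene in human cells and lies at chr14:65358389-65398930. It had 9.86, 10.03 and 10.7 CPM in WT ADP-Hep and 64.2, 64.7 and 57.3 CPM in WT PBS libraries. The log2 fold change was -2.61 ± 0.08 (SE, n = 3 each; edgeR adjusted p = 1.59e-18). Its relative Zfp704, at chr3:9427020-9610085, had 32.7, 30.8 and 33.8 CPM with ADP-Hep and 104, 99.1 and 92.6 CPM with PBS, a log2 fold change of -1.61 ± 0.06 (edgeR adjusted p = 3.99e-18). These related genes with 1 matched finger each thus fell together, with no overlap between treatments in either.

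Zfp30, a KRAB gene at chr7:29783998-29794702 linked in mice to the chemokine Cxcl1 in the airway, was low in all libraries. It had 0.326, 0.713 and 0.432 CPM in WT ADP-Hep and 2.74, 2.78 and 2.55 CPM in WT PBS libraries, a log2 fold change of -2.41 ± 0.27 (edgeR adjusted p = 1.79e-08). Zfp667, also a KRAB gene, had 1.39, 1.56 and 1.38 CPM with ADP-Hep and 4.17, 4.27 and 4.71 CPM with PBS (log2 fold change -1.602 ± 0.18, edgeR adjusted p = 1.60e-08). Both were well separated between treatments in spite of their low counts.

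Zfp652, a repressor with 9 fingers at chr11:95712673-95835115, was among the more abundant members that fell. It had 76.05, 77.8 and 78.2 CPM in WT ADP-Hep and 158, 155 and 154 CPM in WT PBS libraries, a log2 fold change of -1.01 ± 0.04 (edgeR adjusted p = 1.79e-16). All ADP-Hep libraries lay below all PBS libraries. Its exons overlap Phospho1 on the same strand and Abi3 and Zfp652os on the other. Zfp41 had 11.1, 10.2 and 9.76 CPM with ADP-Hep and 20.6, 21.5 and 20.5 CPM with PBS (log2 fold change -0.998 ± 0.09, edgeR adjusted p = 1.72e-10). The falls named here are the 12 largest among members with at least 2 CPM and no overlap between groups. Members that fell as far but did not meet this rule are not listed here. Log2 fold changes of the remaining named members were -1.28 for Zfp469, -1.200 for Zfp473, -1.18 for Zfp108, -1.03 for Zfp964, -0.98 for Zfp775 and -0.96 for Zfp493.

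**Figure D2:**
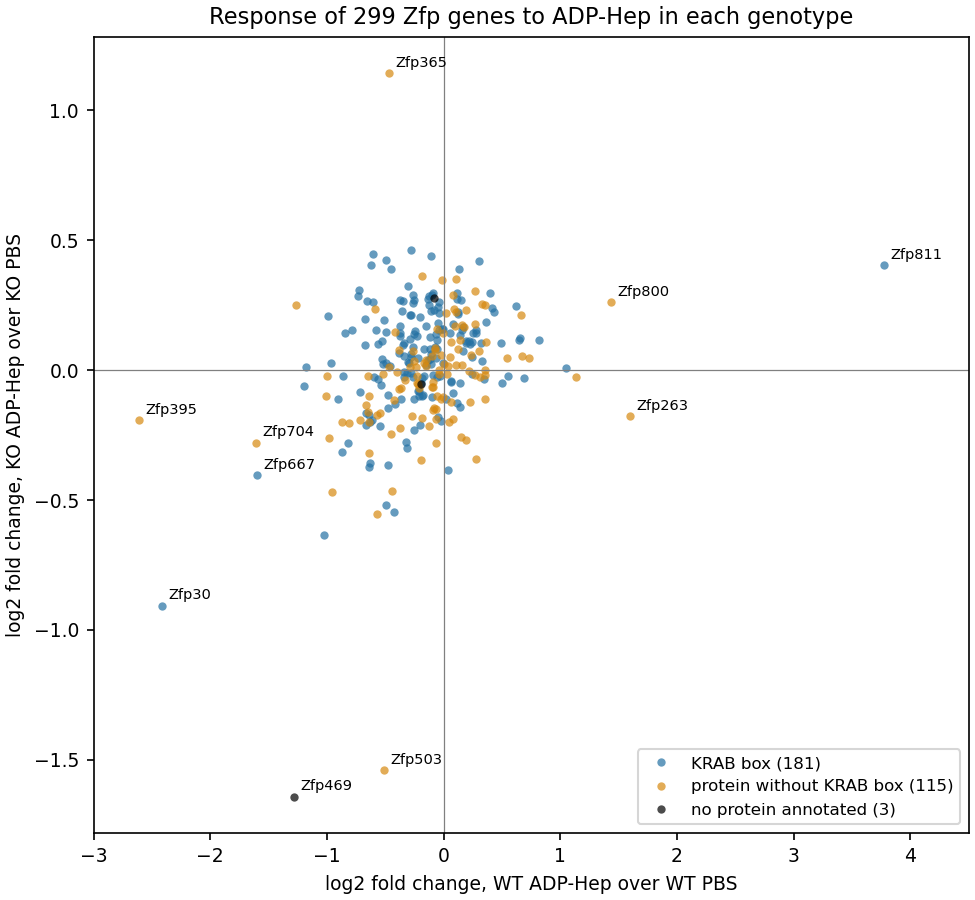
Log2 fold change of ADP-Hep over PBS in KO cells (vertical axis) against that in WT cells (horizontal axis); each point is 1 of the 299 members, coloured by KRAB, no KRAB and no annotated protein. Zfp811 lies at 0.40 on the KO axis and 3.77 on the WT axis, and Zfp395 at -0.19 on the KO axis and -2.61 on the WT axis.

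Members with a described role went both ways in WT cells. Zfp207 had 282, 265 and 260.4 CPM in WT ADP-Hep and 209.6, 204 and 218 CPM in WT PBS libraries, a log2 rise of 0.35 ± 0.05 (edgeR adjusted p = 4.87e-07). Zfp106, the highest member per length, had 342, 346 and 347 CPM with ADP-Hep and 419, 399.7 and 414 CPM with PBS, a log2 fold change of -0.25 ± 0.04 (edgeR adjusted p = 7.22e-06). Neither gene overlapped between treatments. Among called rises, Zfp654 had a log2 fold change of 0.54, Zfp598 of 0.35, Zfp143 of 0.35, Zfp638 of 0.33, Zfp710 of 0.32 and Zfp445 of 0.19. Zfp598 marks collided ribosomes with ubiquitin, Zfp143 binds promoters, Zfp638 takes part in silencing of retroviral DNA, and Zfp445 helps to keep genomic imprints. The call of Zfp445 was lost under library totals, with 0.08.

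Among the falls, Zfp219 had a log2 fold change of -0.87, Zfp703 of -0.72, Zfp385a of -0.64, Zfp609 of -0.45, Zfp148 of -0.26, Zfp687 of -0.23 and Zfp622 of -0.19. Zfp703 is a co-repressor of the same family as Zfp503, Zfp148 is a close relative of Zfp281 that moved the other way, and Zfp622 takes part in ribosome assembly. Without replicate 1 of WT ADP-Hep the fall of Zfp622 was no longer called, at -0.13. Members not called in WT cells included Zfp91, a ubiquitin ligase of the alternative NF-kB pathway, with a log2 fold change of 0.08, Zfp217 with 0.09, Zfp410, the activator of the Chd4 gene, with 0.03, and Zfp568, which silences an embryonic transcript of Igf2, with 0.08. These 4 values turned negative under library totals, and without replicate 3 of WT PBS the rise of Zfp91 was called, at 0.16. Zfp326, Zfp318, Zfp592, Zfp292, Zfp516, Zfp608 and Zfp110 were not called either, with values between -0.09 and 0.14. Without replicate 3 of WT PBS the values of Zfp326 (0.17), Zfp318 (-0.15) and Zfp592 (-0.17) were called. That of Zfp326 was also called with DESeq2's size factors (0.15), under limma-voom (0.14) and without replicate 2 or 3 of KO PBS (0.14). A fit with a replicate block and without the unnumbered library called it too (0.15). Under library totals Zfp318, Zfp592, Zfp292 and Zfp516 were called lower, at -0.203, -0.21, -0.202 and -0.14. Zfp746, a substrate of the ubiquitin ligase Parkin, and Zfp644 were called at 0.16 and -0.15. The call of Zfp746 was lost under library totals (0.05), under DESeq2 (0.17) and without replicate 1 or 2 of WT PBS or 2 or 3 of WT ADP-Hep (0.12 to 0.17). It was also lost when every gene with a count was kept (0.16) and when only the groups compared were fitted (0.16). That of Zfp644 was lost under DESeq2 (-0.14) and without replicate 1 or 3 of WT PBS or 2 or 3 of WT ADP-Hep (-0.16 to -0.10).

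KRAB genes supplied 69 of the 110 falls and 21 of the 44 rises. Of 181 KRAB members, 21 were higher (11.6%) and 69 lower (38.1%) in WT ADP-Hep than in WT PBS cells, with a median log2 fold change of -0.20. Of 115 members without KRAB, 23 were higher (20%) and 40 lower (34.8%), with a median of -0.07. Over all tested genes 31.9% were higher and 31.6% lower. The classes also differ in level. Of the 63 KRAB members above the median level of all members, 10 rose and 26 fell (median -0.10), and of the 118 below it, 11 rose and 43 fell (median -0.26). Of the 87 members without KRAB above that level, 23 rose and 31 fell (median -0.05), and of the 28 below it none rose and 9 fell (median -0.20). The difference between the classes was not tested. Of the 13 SCAN members 2 rose and 3 fell.

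**Figure D3:**
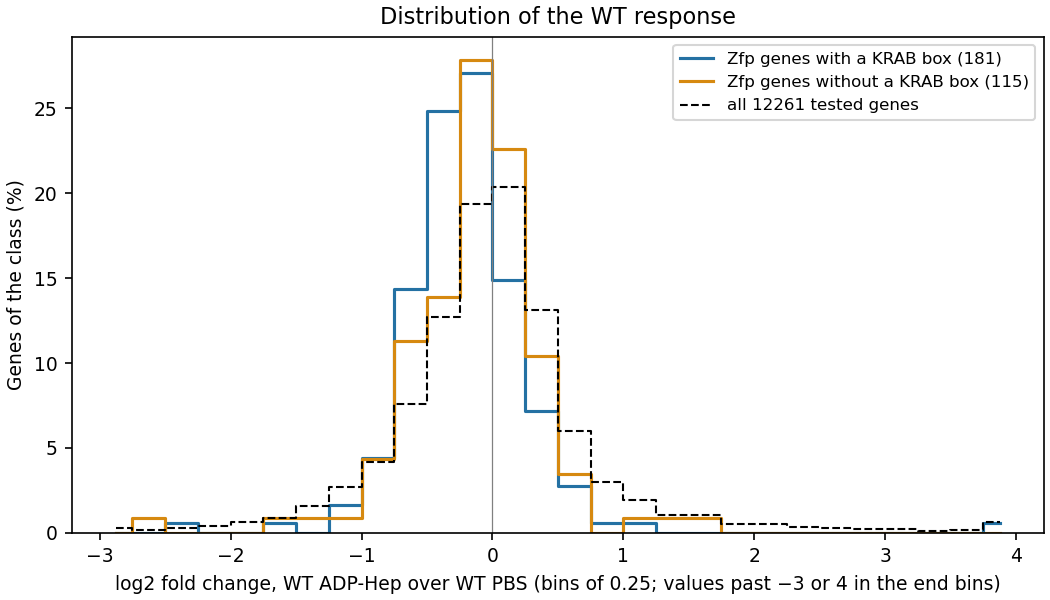
Percent of genes of each class (vertical axis) by log2 fold change of WT ADP-Hep over WT PBS (horizontal axis, bins of 0.25) for KRAB members, members without KRAB and all 12261 tested genes (dashed). The median of KRAB members lies at -0.20 and that of members without KRAB at -0.07, against -0.01 for all genes.

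**Figure D4:**
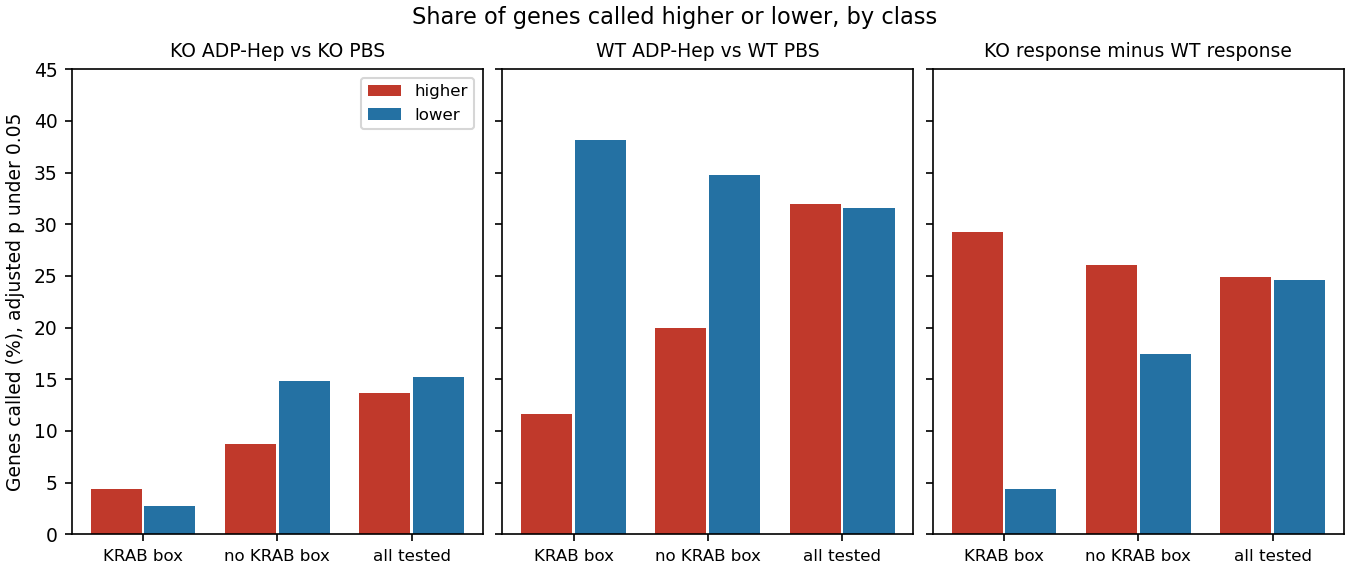
Percent of genes called higher (red) and lower (blue) at an adjusted p under 0.05 (vertical axis from 0) in the response of KO cells, the response of WT cells and the difference between them, for KRAB members (n = 181), members without KRAB (n = 115) and all tested genes. In WT cells 11.6% of KRAB members rose and 38.1% fell, against 31.9% and 31.6% of all genes.

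Falls outnumbered rises among lone members and in runs alike. Of 91 members with no other member within 1 Mb, 19 rose and 33 fell in WT cells. In runs of 2 to 9 members, 15 of 130 rose and 51 fell, and in longer runs 10 of 78 rose and 26 fell. Among the 36 members with more than 20% shared stretches 2 rose and 12 fell, with a median log2 fold change of -0.23, and among the other 263, 42 rose and 98 fell, with a median of -0.15. The largest run, of 22 KRAB members within 2.56 Mb of chromosome 17, held 3 rises and 8 falls, and a run of 20 KRAB members on chromosome 13 held 3 rises and 6 falls.

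Zfp811 lies in a run of 13 members, 12 of them KRAB genes, that spans 0.87 Mb of chromosome 17, and its nearest neighbours changed far less. The run held 3 rises and 4 falls and had a median log2 fold change of -0.05. Zfp871, 7389 bp away on one side, had 252, 239 and 220.0 CPM in WT ADP-Hep and 189, 179 and 190.2 CPM in WT PBS libraries, a log2 fold change of 0.35 ± 0.05 (edgeR adjusted p = 2.44e-06). Zfp799, 5518 bp away on the other, had a log2 fold change of 0.12 ± 0.11 and was not called (edgeR adjusted p = 0.362). Zfp719 lies 4149 bp from Zfp658, whose log2 fold change was -0.02 and was not called. Its neighbour on the other side, Ceacam18 at 41472 bp, was called higher, at 2.16. Zfp263 lies 25996 bp from Mefv, the gene of the inflammasome protein pyrin, whose log2 fold change was 3.52. On the other side of Zfp263, Zfp174 at 96478 bp was called lower, at -0.65.

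**Figure D5:**
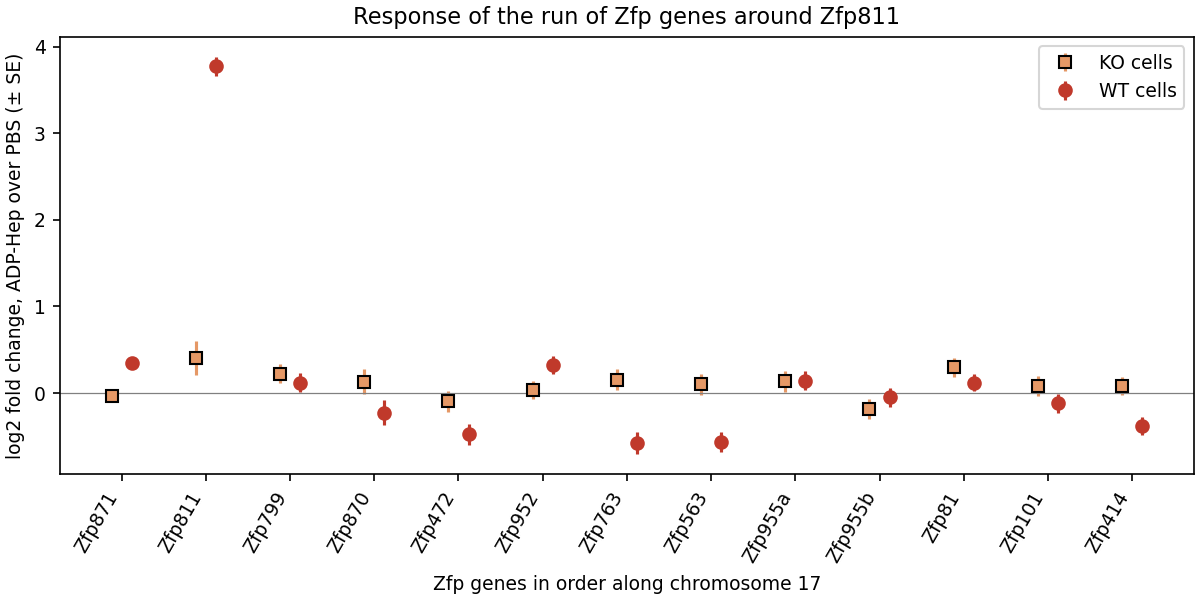
Log2 fold change of ADP-Hep over PBS (vertical axis, points with bars of ± SE) in KO cells (squares) and WT cells (circles) for the 13 members of the run on chromosome 17, in their order along the chromosome (horizontal axis). In WT cells Zfp811 stands at 3.77, and its neighbours Zfp871 and Zfp799 at 0.35 and 0.12.

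The partners through which KRAB proteins silence DNA were read from a list of 24 co-repressor genes, of which 7 rose (29.2%) and 10 fell (41.7%) in WT cells, against 31.9% and 31.6% of all tested genes. Trim28, the scaffold that KRAB binds, had 107, 109.8 and 118 CPM in WT ADP-Hep and 135, 134 and 138 CPM in WT PBS libraries, a log2 fold change of -0.29 ± 0.05 (edgeR adjusted p = 1.32e-05). Setdb1 had 67.7, 65.01 and 67.7 CPM with ADP-Hep and 92.3, 90.8 and 87.7 CPM with PBS (log2 fold change -0.43 ± 0.05, edgeR adjusted p = 1.08e-07). Dnmt1, the maintenance DNA methyltransferase, had 123, 124 and 132 CPM with ADP-Hep and 256, 251 and 233 CPM with PBS (log2 fold change -0.97 ± 0.05, edgeR adjusted p = 5.97e-15). All 3 were lower in every ADP-Hep library. In the other direction Resf1, a partner of SETDB1, had 204, 206 and 177 CPM with ADP-Hep and 126, 118 and 138 CPM with PBS, a log2 fold change of 0.62 ± 0.06. The other called rises were Hdac1 (0.49), Hdac2 (0.47), Morc3 (0.41), Smarcad1 (0.25), Gatad2a (0.21) and Chd4 (0.18), as log2 fold changes. The other called falls were Zmynd8 (-0.66), Chd3 (-0.58), Uhrf1 (-0.55), Mta1 (-0.49), Cbx3 (-0.41), Atf7ip (-0.39) and Gatad2b (-0.22). Zinc finger genes under other names gave 9 rises (23.7%) and 11 falls (28.9%) among 38 Zbtb genes, near the shares of all genes, and no rise and 10 falls (55.6%) among 18 Zscan and Zkscan genes.

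In KO cells few members changed. In KO ADP-Hep against KO PBS cells 18 of 299 were higher (6.02%) and 23 lower (7.69%), where 13.7% of all tested genes were higher and 15.3% lower. The median log2 fold change was 0.03. At least 2-fold changes were called in 1 member upward and 2 downward, against 0.767% and 1.1% of all genes. Of 181 KRAB members 8 rose and 5 fell, and of 115 without KRAB 10 rose and 17 fell. Under library totals the split turned to 31 higher and 15 lower.

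Zfp811 and Zfp395, which had led the response of WT cells, moved less in KO cells. Zfp395, Zfp30 and Zfp469 were called lower in both genotypes. The log2 fall of Zfp30 was also smaller in KO cells, at -0.91 against -2.41 in WT cells. The difference of responses of Zfp469 was -0.36 ± 0.37 and was not called (edgeR adjusted p = 0.442). Zfp811 had 2.604, 2.75 and 2.44 CPM in KO ADP-Hep and 1.49, 2.46 and 1.77 CPM in KO PBS libraries, and its log2 fold change of 0.40 ± 0.19 did not pass the test (edgeR adjusted p = 0.122). Zfp395 had 55.7, 64.7 and 55.2 CPM with ADP-Hep and 65.5, 72.2 and 60.9 CPM with PBS in KO cells (log2 fold change -0.19 ± 0.07, edgeR adjusted p = 0.0386). The KO libraries of Zfp395 overlapped between treatments. Zfp131, Zfp719 and Zfp281 were not called in KO cells, with log2 fold changes of -0.03, 0.01 and 0.05.

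The member with the largest well-measured fall in KO cells was Zfp503, a co-repressor of the same family as Zfp703, at chr14:21983959-21989601. It had 4.03, 3.93 and 3.68 CPM in KO ADP-Hep and 11.8, 10.9 and 11.3 CPM in KO PBS libraries, a log2 fold change of -1.54 ± 0.12 (edgeR adjusted p = 1.76e-10). In WT cells it had 7.34, 8.52 and 8.81 CPM with ADP-Hep and 10.9, 12.3 and 11.6 CPM with PBS, a log2 fold change of -0.51 ± 0.10 (edgeR adjusted p = 6.75e-05). It fell in both genotypes and fell further in KO cells, with a difference of responses of -1.03 ± 0.15 on the log2 scale (edgeR adjusted p = 4.07e-06). Zfp469, annotated without a protein, had 1.76, 1.73 and 0.797 CPM with ADP-Hep and 3.58, 5.27 and 4.27 CPM with PBS in KO cells (log2 fold change -1.64 ± 0.28, edgeR adjusted p = 0.00022).

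Zfp655 fell in both genotypes. In KO cells it had 50.7, 49.9 and 51.6 CPM with ADP-Hep and 76.2, 69.3 and 78.8 CPM with PBS, a log2 fold change of -0.56 ± 0.06 (edgeR adjusted p = 2.10e-07). In WT cells it had 51.8, 47.4 and 42.2 CPM with ADP-Hep and 70.1, 69.4 and 72.6 CPM with PBS, a log2 fold change of -0.57 ± 0.06 (edgeR adjusted p = 1.43e-08). The difference of responses was 0.02 ± 0.09 and was not called (edgeR adjusted p = 0.892). Zfp30, Zfp28, Zfp358, Zfp72 and Zfp408 were the other large falls, with log2 fold changes in KO cells of -0.91, -0.55, -0.47, -0.47 and -0.35. The call of Zfp408 was lost without replicate 1 of KO PBS, at -0.31, and without the KO ADP-Hep library that has no replicate number, at -0.27. A fit with a replicate block and without that library lost it too, at -0.25.

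Among the rises in KO cells was Zfp809, the KRAB protein known in mouse to recognise the primer binding site of retroviral elements and to silence them. It had 22.9, 20.6 and 21.7 CPM in KO ADP-Hep and 16.3, 16.2 and 16.4 CPM in KO PBS libraries (log2 fold change 0.42 ± 0.08, edgeR adjusted p = 0.000306). In WT cells it had 18.99, 17.7 and 21.3 CPM with ADP-Hep and 14.5, 15.5 and 16.3 CPM with PBS (log2 fold change 0.30 ± 0.08, edgeR adjusted p = 0.00214). It rose in both genotypes, and the difference of responses was 0.12 ± 0.11 and was not called. Zfp706 had 115, 108 and 111 CPM with ADP-Hep and 80.98, 92.2 and 89.1 CPM with PBS in KO cells (log2 fold change 0.35 ± 0.06, edgeR adjusted p = 2.89e-05). In WT cells its groups overlapped, with 95.7, 90.4 and 91.97 CPM with ADP-Hep and 88.2, 92.4 and 99.1 CPM with PBS.

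Zfp365, a DNA repair factor in human cells, had the largest rise in KO cells but few counts. It had 2.100, 2.67 and 1.49 CPM in KO ADP-Hep and 0.746, 0.959 and 1.05 CPM in KO PBS libraries (log2 fold change 1.14 ± 0.29, edgeR adjusted p = 0.00401). Zfp518a had a log2 fold change of 0.35. The rises of Zfp759 (0.46), Zfp788 (0.39) and Zfp449 (0.36) each lost their call under DESeq2. Each also lost it in a fit with a replicate block and without the unnumbered library (0.44, 0.33 and 0.34). That of Zfp759 was also lost without replicate 1 of KO PBS (0.39) or of KO ADP-Hep (0.35). That of Zfp788 was lost without replicate 1 (0.38) or 3 (0.33) of KO PBS and without the KO ADP-Hep library that has no replicate number (0.31), and that of Zfp449 without any KO PBS replicate or replicate 1 or 3 of KO ADP-Hep (0.34 to 0.38).

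By their calls in both genotypes, 4 members were higher in both (Zfp451, Zfp638, Zfp800 and Zfp809) and 17 lower in both. In 89 members a fall and in 37 a rise was called in WT cells with no call in KO cells, and 10 rises and 3 falls were called in KO cells alone. A further 132 members were called in neither. A call in one genotype and not in the other is no test of a difference, which is given next.

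The response to ADP-Hep differed between genotypes in many members. The log2 response of KO cells exceeded that of WT cells in 83 of 299 members (27.8%) and was below it in 28 (9.36%), where 24.9% and 24.6% of all tested genes were called. Differences of at least 2-fold were called in 13 members upward and 6 downward, against 5.57% and 6.14% of all genes. The median difference, KO minus WT, was 0.17, against 0.01 over all genes. Of 181 KRAB members 53 were called with a higher response in KO cells and 8 with a lower one (median 0.26), and of 115 without KRAB 30 and 20 (median 0.05). Under library totals 126 members were called higher and 20 lower, with a median of 0.32, and the median of all genes was then 0.16, against 0.01 under TMM.

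On the lower side the largest differences were those of the members with the largest rises in WT cells. For Zfp811 the difference was -3.37 ± 0.25 (edgeR adjusted p = 2.75e-11), for Zfp263 -1.78 ± 0.08 (edgeR adjusted p = 2.51e-15) and for Zfp800 -1.17 ± 0.10 (edgeR adjusted p = 2.26e-10). Zfp800 still rose in KO cells, where it had 27.9, 27.6 and 27.5 CPM with ADP-Hep and 22.4, 22.3 and 24.7 CPM with PBS (log2 fold change 0.26 ± 0.07, edgeR adjusted p = 0.00809). On the upper side the difference was 2.42 ± 0.11 for Zfp395 (edgeR adjusted p = 4.74e-15). It was followed by Zfp365 (1.61 ± 0.45), which rose in KO cells and was not called in WT cells, and by Zfp532 (1.51 ± 0.36), Zfp30 (1.51 ± 0.36), Zfp704 (1.33 ± 0.08), Zfp667 (1.197 ± 0.24), Zfp108 (1.19 ± 0.41) and Zfp473 (1.14 ± 0.30), which fell in WT cells. The difference of Zfp108 lost its call without replicate 1 of WT PBS, at 1.01, and without replicate 2 of WT ADP-Hep, at 1.06. Zfp652, at a higher level than these but further down this order, had a difference of 0.91 ± 0.06 (edgeR adjusted p = 3.59e-12).

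In 7 members the responses were called in opposite directions. The share of all tested genes with opposite calls was not counted. Zfp113, Zfp266, Zfp810 and Zfp90, all KRAB genes, were lower with ADP-Hep in WT cells and higher in KO cells. Zfp810 had 14.9, 16.3 and 15.6 CPM in KO ADP-Hep and 13.05, 11.9 and 9.11 CPM in KO PBS libraries (log2 fold change 0.45 ± 0.10, edgeR adjusted p = 0.00191). In WT cells it had 6.398, 6.55 and 5.87 CPM with ADP-Hep and 9.44, 10.5 and 9.17 CPM with PBS (log2 fold change -0.61 ± 0.12, edgeR adjusted p = 7.15e-05). The groups were apart in both genotypes, and the difference of responses was 1.05 ± 0.16.

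Zfp90 had 26.3, 27.3 and 27.2 CPM with ADP-Hep and 23.1, 21.8 and 19.5 CPM with PBS in KO cells (log2 fold change 0.32 ± 0.08, edgeR adjusted p = 0.00328). In WT cells it had 16.1, 18.2 and 14.8 CPM with ADP-Hep and 22.01, 20.4 and 19.3 CPM with PBS (log2 fold change -0.31 ± 0.08, edgeR adjusted p = 0.00211). Zfp266 moved the same ways, with log2 fold changes of 0.26 ± 0.07 in KO and -0.27 ± 0.06 in WT cells. The rise of Zfp113 in KO cells, 0.31 ± 0.11, lost its call without replicate 2 (0.34) or 3 (0.22) of KO PBS, without any of the 3 KO ADP-Hep libraries (0.30 to 0.32) and without replicate 2 of WT PBS (0.30). That call was also lost under DESeq2 (0.31) and in a fit with a replicate block and without the unnumbered library (0.34).

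Zfp263, Zfp275 and Zfp335, in which the search found no KRAB domain, were higher with ADP-Hep in WT cells and lower in KO cells. Zfp275 had 34.1, 31.1 and 32.8 CPM in KO ADP-Hep and 41.6, 39.3 and 44.1 CPM in KO PBS libraries (log2 fold change -0.34 ± 0.06, edgeR adjusted p = 0.000149). In WT cells it had 56.7, 55.5 and 54.3 CPM with ADP-Hep and 45.9, 43.4 and 47.6 CPM with PBS (log2 fold change 0.28 ± 0.06, edgeR adjusted p = 0.000123). Its groups did not overlap in either genotype. Zfp335, part of a histone methyltransferase complex, had log2 fold changes of -0.27 ± 0.08 in KO and 0.19 ± 0.08 in WT cells. The fall of Zfp263 in KO cells, -0.18 ± 0.06, lost its call without any of the 3 KO PBS replicates, without replicate 1 of KO ADP-Hep and without the KO ADP-Hep library that has no replicate number, with values of -0.18 to -0.15. That call was also lost under library totals, at -0.13, and when every gene with a count was kept, at -0.17. A fit with a replicate block and without the unnumbered library lost it too, at -0.16. The rise of Zfp335 in WT cells lost its call under library totals, at 0.08, under DESeq2, at 0.20, and without replicate 1 or 2 of WT PBS or replicate 1 or 3 of WT ADP-Hep, with values of 0.16 to 0.20. Its fall in KO cells lost its call without replicate 1 or 3 of KO PBS or replicate 1 of KO ADP-Hep, with values of -0.26 to -0.18.

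Without ADP-Hep the genotypes were close. In KO PBS against WT PBS cells 7 of 299 members were higher (2.34%) and 2 lower (0.669%), where 5.57% and 5.82% of all genes were called. None of these differences reached 2-fold, against 0.44% and 0.31% of all genes. Zfp217, a transcription factor amplified in human breast cancers, had 109.7, 106 and 118 CPM in KO PBS and 96.4, 95.99 and 93.4 CPM in WT PBS libraries (log2 fold change 0.22 ± 0.05, edgeR adjusted p = 0.00375). Zfp652, which the naming rule leaves out here as the smallest of the 7 rises and which was chosen after its values were seen, had 175, 179 and 178 CPM in KO PBS and 158, 155 and 154 CPM in WT PBS libraries (log2 fold change 0.19 ± 0.04, edgeR adjusted p = 0.00441). The genotypes did not overlap for either gene, though the differences were only 1.17-fold and 1.14-fold.

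The other calls were Zfp69 (0.74), Zfp951 (0.58), Zfp219 (0.25), Zfp628 (0.25) and Zfp704 (0.21) upward and Zfp658 (-0.42) and Zfp518b (-0.25) downward, as log2 fold changes. Without replicate 3 of WT PBS all 7 of these lost their call, with values of 0.59, 0.54, 0.21, 0.22, 0.16, -0.45 and -0.26. Zfp69, Zfp628, Zfp658 and Zfp518b also lost theirs when any 1 of the 3 KO PBS replicates was left out. These lost it too without replicate 1 of KO ADP-Hep, a library outside this comparison. Zfp951 lost its call without replicate 1 of WT PBS or 1 or 3 of KO PBS. That of Zfp219 was lost without replicate 2 of WT PBS or 1 or 2 of KO PBS. Under DESeq2's Wald test 3 members were called higher and none lower.

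Under ADP-Hep the genotypes stood apart. In KO ADP-Hep against WT ADP-Hep cells 123 of 299 members were higher (41.1%) and 35 lower (11.7%), where 32.8% and 32% of all genes were called. At least 2-fold differences were called in 13 members upward and 6 downward, against 6.88% and 6.8% of all genes. The median log2 fold change was 0.17. This comparison shares the WT ADP-Hep libraries with the response of WT cells. Under library totals 179 members were higher and 24 lower.

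The members furthest apart were again Zfp811 and Zfp395. Zfp811 had 2.604, 2.75 and 2.44 CPM in KO ADP-Hep and 38.4, 36.6 and 33.2 CPM in WT ADP-Hep libraries (log2 fold change -3.81 ± 0.11, edgeR adjusted p = 4.83e-20). Zfp395 had 55.7, 64.7 and 55.2 CPM in KO ADP-Hep and 9.86, 10.03 and 10.7 CPM in WT ADP-Hep libraries (log2 fold change 2.52 ± 0.09, edgeR adjusted p = 2.88e-18). The other members named below WT were Zfp263 (-1.896), Zfp800 (-1.33), Zfp719 (-1.27), Zfp503 (-1.06) and Zfp131 (-1.05), and those above WT were Zfp532 (1.698), Zfp365 (1.599), Zfp704 (1.54), Zfp810 (1.29) and Zfp473 (1.28).

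In KO cells the co-repressor list had 6 rises (25%) and 8 falls (33.3%) among its 24 genes, against 13.7% and 15.3% of all tested genes. Trim28 had a log2 fold change of -0.22 ± 0.05 in KO cells, and its difference of responses was 0.07 ± 0.07. Setdb1 had 86.5, 97.1 and 86.6 CPM in KO ADP-Hep and 90.3, 90.6 and 97.3 CPM in KO PBS libraries and was not called (log2 fold change -0.05 ± 0.05, edgeR adjusted p = 0.564). Atf7ip, which stabilises SETDB1, had a log2 fold change of 0.36 ± 0.05 in KO and -0.39 ± 0.05 in WT cells. Of the 18 Zscan and Zkscan genes, 8 were called with a higher response in KO than in WT cells (44.4%) and none with a lower one, against 24.9% and 24.6% of all genes.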

How the data were processed

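RNA of 12 mouse macrophage libraries was read out as gene counts. The authors deposited 1 table of whole-number counts per gene, not normalized, per the file headers. The submitters' processing notes list STAR, featureCounts, RSEM, FastQC, Trim Galore and DESeq2, and mm10 beside hg38 as builds. The tool behind the counts, its version and its strand handling are not stated in the sources used here. Columns were matched to groups by name; 1 KO ADP-Hep column carried a number found in no label and was kept without a replicate number.

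Below row 37542 the columns of the KO libraries sit 1 row away from the gene identifiers, seen from the correlation of WT and KO levels (0.996 above, 0.042 below), so 37542 rows were used and 19207 were not. Libraries were put on 1 scale with TMM, filterByExpr left 12261 genes, and 1 quasi-likelihood model over 4 groups was fitted in R 4.3.3 with edgeR 4.0.16, which gave 5 comparisons. A gene was called at a p under 0.05 after Benjamini-Hochberg adjustment over all 12261, and SE is the log2 fold change over the root of F. The biological coefficient of variation was 4.81%. Replicates of a group differed by a chi-square of 1.96 to 10.5 per degree of freedom over all genes, so no library was counted as a copy of another. Over the members alone it was 1.06 to 4.12, and the lowest pairs there (WT PBS 1 and 2, and KO ADP-Hep 1 and the unnumbered library) differed by little more than sampling noise.

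KRAB and SCAN domains were found with hmmer 3.4 from profiles built with mafft 7.526, and motifs were searched in the 250 bases before each start. Alternatives, run with limma 3.58.1 and DESeq2 1.42.0 among others, covered scaling, filters, tools, a replicate block, the samples in the fit, a fold threshold and leaving out each library. The members, the gene lists and the alternatives were chosen with earlier results of these data known. The text names, in each comparison, called members with at least 2 CPM and no overlap between groups (none asked for the difference of responses), ranked by fold: up to 12 a direction in WT, 8 in KO cells and for the difference, and 6 between genotypes, then the 8 highest per kilobase and a list of members with a described role. Members called in opposite directions are named as well.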

Additional observations from a re-analysis of the deposited data

Results flagged for a closer look

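The responses of KO and WT cells to ADP-Hep differed by the test of the difference in 22 members named here, given as the log2 response of KO cells minus that of WT cells (edgeR, adjusted over all genes). These are the 8 members with the largest differences in each direction and 6 more whose responses were called in opposite directions. KO cells had the higher value for Zfp395 (2.42), Zfp365 (1.61), Zfp532 (1.51), Zfp30 (1.51), Zfp704 (1.33), Zfp667 (1.197), Zfp108 (1.19) and Zfp473 (1.14). Except for Zfp365, each of these fell in WT cells by the test.

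KO cells had the lower value for Zfp811 (-3.37), Zfp263 (-1.78), Zfp800 (-1.17), Zfp131 (-1.16), Zfp719 (-1.04), Zfp503 (-1.03), Zfp948 (-0.71) and Zfp119a (-0.70). Except for Zfp503, each of these rose in WT cells. The differences of Zfp113 (1.03), Zfp266 (0.53), Zfp810 (1.05) and Zfp90 (0.63) joined a rise in KO cells to a fall in WT cells, and those of Zfp275 (-0.62) and Zfp335 (-0.46) joined a fall in KO cells to a rise in WT cells. The difference of Zfp108 lost its call without replicate 1 of WT PBS, at 1.01, and without replicate 2 of WT ADP-Hep, at 1.06, and that of Zfp119a without replicate 2 of KO PBS, at -0.59.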

How the results depend on the processing

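Counts of called members, higher first, kept within 1.5 times of those in the text except as follows. Library totals gave 29 higher in WT cells, 31 and 15 in KO cells, and 126 higher for the difference of responses. A test against at least 1.5-fold gave 5 and 16 in WT cells, 0 and 2 in KO cells, 12 and 6 for the difference, 0 and 0 for KO against WT with PBS, and 19 and 7 with ADP-Hep. Fitting only the groups compared gave 29 higher in KO cells and 1 lower for KO against WT with PBS. For that last comparison DESeq2's Wald test gave 3 and 0, limma-voom gave 1 lower, and keeping every gene with a count gave 4 and 5. The cause of these shifts was not tested. Leaving out 1 library at a time gave 34 to 45 higher and 96 to 112 lower in WT cells, 13 to 24 and 14 to 24 in KO cells, 72 to 84 and 24 to 27 for the difference, 2 to 8 and 0 to 4 for KO against WT with PBS, and 97 to 126 and 33 to 42 with ADP-Hep. Falls in KO cells numbered 14 without replicate 1 of KO ADP-Hep, and 15 without replicate 1 of KO PBS or without the unnumbered library. For KO against WT with PBS, 2 members were higher without replicate 3 of WT PBS and 4 without replicate 1 of KO PBS, and the 2 falls became 0 without replicate 1 or 3 of KO PBS or replicate 1 of KO ADP-Hep.

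Whether replicate numbers pair these libraries was left undecided. Of 15 same-numbered pairs, 4 had deviations that correlated above 0.1. The median r was 0.068, against -0.015 for pairs with different numbers. With at most 3 libraries per group, these correlations cannot exclude pairing. A fit with the replicate block, without the unnumbered library, gave 9 and 15 in KO cells; without the block those libraries gave 15 lower in KO cells and 1 lower for KO against WT with PBS. Library totals turned the sign of 6 uncalled WT values: Zfp217 to -0.0259, Zfp91 to -0.0318, Zfp410 to -0.0839, Zfp608 to -0.0496, Zfp110 to -0.0512 and Zfp568 to -0.0294. Over 127 named values of 78 genes, 2495 repeats were counted as unchanged, 131 lost the call, 13 gained it and 6 turned. These repeats leave out the test against at least 1.5-fold. They count the fit without the unnumbered library and without a block again, as a fit that leaves out 1 library. Low counts limit the lowest members, such as Zfp365 and Zfp30.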

Other observations

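Runs of Zfp genes on chromosome 7 held few rises in WT cells, and these values are given without a test. Of all members 14.7% were higher and 36.8% lower, and of all tested genes 31.9% and 31.6%. A run of 9 members, 7 of them KRAB genes, had 6 called lower and none higher with ADP-Hep, at a median log2 fold change of -0.34. A run of 10 members with 4 KRAB genes had 4 lower and none higher, at a median of -0.29. A second run of 9 members, 6 of them KRAB genes, had 4 lower and 1 higher, at a median of -0.34, and a run of 13 members with 10 KRAB genes had 4 lower and 1 higher, at a median of -0.12.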
